A study of Mus musculus with 8 samples.

Results

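The regions described here are those of the calcineurin-NFAT pathway bound by FOS in cortical microglia after IL-33. IL-33, an alarm cytokine of the interleukin-1 family, was injected into the cerebral ventricles on 1 side in 4 mice aged P30, cortical microglia were isolated by cell sorting 4 h later, and each mouse gave a FOS chromatin immunoprecipitation (ChIP) library and an input library. All 4 mice had received IL-33, no vehicle-injected mouse was analysed here, and the labels state no genotype, strain or sex. The deposited table joined the authors' FOS peaks with peaks of a second list, called the IL-33 list below, whose header name reads as IL-33 against vehicle. It had no values per library, so depth is unknown, no value below carries a replicate error, and no test was made.

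The members are 8 genes: Rcan1, Nfatc1, Nfatc2, Nfatc3, Nfat5, Ppp3ca, Ppp3cb and Ppp3cc. A region belonged to a member when its centre lay inside the gene body or at most 100 kb from it on mm10. This gave 82 of the 32773 regions of the table, and no region fell in the windows of 2 members. A FOS peak was present in 81 of them. There were 76 with a FOS peak alone (FOS-only), 5 with peaks of both lists (shared) and 1 with a peak of the IL-33 list alone (IL-33-only). A member was the nearest protein-coding gene for 53 of the 82 regions, of which 46 lay inside a member and 7 outside. The other 29 regions lay nearer to a neighbouring gene, 18 of them inside it. The genes were chosen by results of this table, Rcan1 by the score of a region inside it that stands among the highest, so counts and ranks are given as a description. The regions closest to the 100 kb limit were one 98659 bp from Nfat5 on the inner side (score 14.1, the authors' value per region) and one 100684 bp from Nfatc3 on the outer side (score 15.3).

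Calcineurin is a phosphatase switched on by calcium and calmodulin. It removes phosphate groups from NFAT proteins in the cytoplasm, which then enter the nucleus and often bind DNA together with AP-1, the dimer of FOS and JUN proteins. RCAN1 binds calcineurin and inhibits it, and a short Rcan1 transcript that starts at an internal promoter is known in other cell types to be induced by calcineurin and NFAT, which closes a feedback loop. In microglia, calcineurin and NFAT are known to act downstream of calcium signals in the control of cytokine genes.

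FOS regions lay over both annotated starts of Rcan1 and over the starts of Nfat5 and Ppp3cb. The sequences of these starts are shown because they are the places where a FOS region met a matched promoter window of a member. Each window runs from 250 bases before to 50 bases after a RefSeq start on GRCm38.p6, the same assembly as mm10, read on the strand of the gene. RefSeq windows were matched for 5 of the 8 members, 8 windows in all. None was matched for Nfatc1, Ppp3ca and Ppp3cc, so overlap of FOS regions with their starts could not be counted. Capitals mark matches on either strand to TGANTCA, the AP-1 motif, to TGACGTCA, the cyclic AMP response element that AP-1 and ATF/CREB dimers can bind, and to GGAAA, the core that NFAT proteins recognise. No match of one motif overlapped a match of another.
Rcan1 downstream start: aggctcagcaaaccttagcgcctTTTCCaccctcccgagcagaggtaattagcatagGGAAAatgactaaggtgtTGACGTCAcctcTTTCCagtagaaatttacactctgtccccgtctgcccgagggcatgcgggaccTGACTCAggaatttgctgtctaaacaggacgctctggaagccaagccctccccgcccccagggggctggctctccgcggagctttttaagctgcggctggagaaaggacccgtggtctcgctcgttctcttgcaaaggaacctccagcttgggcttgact
Rcan1 upstream start: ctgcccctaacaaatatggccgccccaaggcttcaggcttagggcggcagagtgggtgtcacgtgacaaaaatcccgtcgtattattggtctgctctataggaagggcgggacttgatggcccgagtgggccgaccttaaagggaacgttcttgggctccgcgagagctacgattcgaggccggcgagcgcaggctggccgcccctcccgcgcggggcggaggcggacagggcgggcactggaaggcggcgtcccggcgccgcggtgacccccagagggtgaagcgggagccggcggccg
Nfat5 start: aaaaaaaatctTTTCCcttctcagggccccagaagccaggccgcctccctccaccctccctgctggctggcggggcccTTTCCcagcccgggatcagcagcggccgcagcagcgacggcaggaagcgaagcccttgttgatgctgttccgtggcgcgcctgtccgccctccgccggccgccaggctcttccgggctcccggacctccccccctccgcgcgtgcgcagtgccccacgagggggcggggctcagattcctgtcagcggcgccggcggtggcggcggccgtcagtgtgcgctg
Ppp3cb start: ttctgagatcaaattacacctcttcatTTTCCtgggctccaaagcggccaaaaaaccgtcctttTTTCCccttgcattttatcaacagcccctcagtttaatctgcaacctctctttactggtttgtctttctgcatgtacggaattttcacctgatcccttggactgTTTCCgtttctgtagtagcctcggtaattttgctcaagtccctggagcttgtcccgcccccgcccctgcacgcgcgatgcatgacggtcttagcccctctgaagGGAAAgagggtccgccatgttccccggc

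The Rcan1 downstream window was chr16:92400029-92400328 on the minus strand, and the upstream window was chr16:92466120-92466419 on the same strand. The Nfat5 window was chr8:107293220-107293519 on the plus strand and the Ppp3cb window chr14:20546524-20546823 on the minus strand. The FOS regions covered 300 of the 300 bases at both Rcan1 starts and at Nfat5, and 158 bases at Ppp3cb. Among 21262 promoter windows of protein-coding genes, 27.4% were overlapped by a FOS region. The Nfatc2 and Nfatc3 windows, 2 for each gene, were not overlapped by one.

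The downstream Rcan1 window held 1 TGANTCA match, spelled TGACTCA, that began 110 bases before the start. It also held 1 TGACGTCA match that began 175 bases before the start, and 3 GGAAA matches that began 227, 193 and 163 bases before it. The centre of the FOS region lay 126 bases before the same start, between the first 2 of these motifs. Of the other 7 member windows, 0 held TGANTCA or TGACGTCA, and the upstream Rcan1 window had no GGAAA either. Of all 32851 promoter windows, 7.81% held TGANTCA, 1.79% held TGACGTCA and 0.0578% (19 windows) held both. GGAAA stood in 61.3% of them, and 9.42% had 3 or more matches. A match is a match of letters and was not tested as a binding site.

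Rcan1 had the highest-scoring FOS region of the 8 genes. The gene lies on chromosome 16 from 92391951 to 92466169 and has RefSeq starts 66091 bp apart. The score is the authors' own value for each peak, on a scale that no label or header states, and served only to rank regions within this table. The region at 92415789 to 92416160 scored 117 and ranked 17 among 31473 FOS regions. It lay inside the gene, 15896 bp before the downstream start, and carried 4 calls. The number of calls is the number that ends the name of a FOS peak. It runs from 1 to 4 and was taken here to count the FOS libraries with that peak, which no label states.

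The second Rcan1 region by score, at 92400013 to 92400395, was the one over the downstream start, with a score of 68.5 and 4 calls. The region over the upstream start, at 92466113 to 92466448, scored 24.6 with 2 calls. The start of the short transcript thus had the higher score and the larger number of calls. Overlap at both outermost starts was found in 3.74% of the 802 coding genes with starts at least 10 kb apart. A 4-call region overlapped 4.9% of all promoter windows of coding genes.

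The remaining Rcan1 regions inside the gene formed a row between the starts. A region 19141 bp before the downstream start scored 46.3 with 3 calls. A pair 25772 and 22414 bp after the upstream start scored 38.0 with 4 calls and 25.9 with 3 calls. The strongly scored regions thus came from 3 or 4 calls, while 3 single-call regions inside the gene scored 13.8, 15.7 and 19.4. Neighbouring centres inside the gene were 3245 to 10116 bp apart, with a median of 5654 bp. Beyond the gene, single-call regions lay 9274 bp away (score 4.54) and 58196 bp away inside Clic6 (score 7.02). In all, 10 of the 11 Rcan1 regions were nearest to Rcan1.

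**Figure D1:**
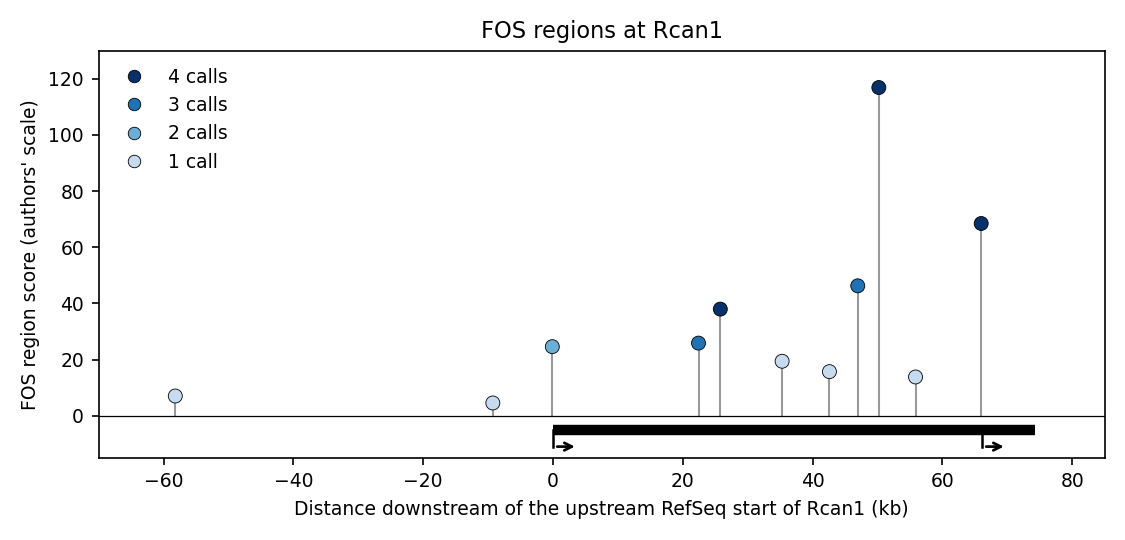
FOS regions within 100 kb of Rcan1. The x axis is the distance downstream of the upstream start in kb, the y axis the score on the authors' scale, each point 1 region coloured by its calls, the black bar the gene body and the arrows the RefSeq starts. The highest point (117) lies inside the gene and the next (68.5) at the downstream start.

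All 11 Rcan1 regions were FOS-only, as were 29925 of all 31473 FOS regions. The nearest region of the IL-33 list was 486.6 kb away, a shared region assigned to Runx1. Of 21883 coding genes, 64 had a FOS region scoring at least as high as the Rcan1 one within 100 kb, and 10 of these 64 had no IL-33 list region within 100 kb. Both the 64 and the 10 include Rcan1 itself, and may include neighbours whose windows hold the same region. The Rcan1 region ranked 17 among FOS regions, so some regions were counted for several genes. The 64 genes are therefore not separate cases. Among the 100 highest-scoring FOS regions of the table, 87.0% were FOS-only. Of the 368 coding genes with any of these 100 regions within 100 kb, 23.6% had no IL-33 list region in the same window. The 368 also include Rcan1, and genes close together were counted separately for the same region. Of all coding genes, 80.9% had no IL-33 list region within 100 kb, as had 5 of the 8 members.

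Genes whose neighbourhood held the same mix of regions were sought by the distance between log2(1 + number) of FOS-only regions of 1, 2, 3 and 4 calls, shared regions and IL-33-only regions within 100 kb. Rcan1 had 5, 1, 2 and 3 FOS-only regions of 1 to 4 calls, and 9 of 21876 genes outside its window had exactly these numbers (distance 0). The 5 with the closest highest score were Arrb1 (106), Glrp1 (92.7), Ppcdc (80.6), and Slc26a8 and Mapk14 (51.1 each). Slc26a8 and Mapk14 both lie on chromosome 17 and had the same highest score, so their windows may hold the same regions and may not be separate cases. The measure rests on 1 pooled table and 6 numbers per gene.

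The NFAT factor genes differed widely in how many FOS regions lay inside them. Nfatc2 encodes an NFAT protein best known from T cells, where it acts with AP-1 at cytokine promoters. It lies on chromosome 2 from 168476410 to 168601657 and had 16 FOS regions in its window, 15 of them inside the gene. Of all coding genes, 0.311% had as many FOS regions inside the body. The gene is 125.2 kb long, and 8.34% of coding genes were at least as long.

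Nfatc2 regions were crowded into the part of the gene nearer to its starts. Centres of the 15 regions spanned 56.9 kb, and 14 of them lay above the midpoint of the gene in coordinate, which is the side of both RefSeq starts on the minus strand. The highest score was 58.9, at 168539837 to 168540187 with 4 calls, followed by 40.5 at 168541256 to 168541601, also with 4 calls. The other 4-call regions scored 34.2, 32.1 and 30.7. These 5 regions lay 11107 to 50353 bp after the nearer start. Closest to a start was a 2-call region of score 17.8, centred 712 bp after the inner start, outside the promoter window. The single region outside the gene lay 23593 bp before the outer start (score 18.4) and was nearer to Atp9a.

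Nfatc2 also had 2 shared regions, both inside the gene. One at 168556110 to 168556713 had 3 FOS calls and 1 IL-33 list call, and its peak centres were 185 bp apart. Its score was 14.2 as deposited and 28.5 once restored. The other, at 168532286 to 168533132, joined 1 FOS peak of 1 call with 2 IL-33 list peaks (restored score 12.4). Scores of shared regions were restored because the authors' merge averaged them with the zeros of the IL-33 list, which stood in 1300 of 1300 IL-33-only regions. Neither shared region was among the 5 4-call regions of the gene.

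Nfatc1 encodes the NFAT protein that drives osteoclast formation from myeloid precursors and is induced there by its own product together with FOS. It lies on chromosome 18 from 80606205 to 80713071, and its window held 13 FOS regions, 8 of them inside the gene. Inside it, 4-call regions scored 41.1 (80691697 to 80692172) and 38.0 (80702461 to 80702781), 3-call regions scored 26.3 and 23.5, and 1-call regions scored 7.8 to 36.9. Of the 8, 6 lay together near the higher-coordinate end and spanned 18.1 kb. A further 4-call region of 37.5 lay 51327 bp below the lower end and was nearest to Nfatc1. The highest score in the window, 51.6 at 80738202 to 80738587, belonged to a region inside the neighbouring gene Atp9b, and one of 45.1 was nearer to Ctdp1. The 13 regions were FOS-only, as were 29925 of all 31473 FOS regions, and the IL-33 list came no closer than 268.1 kb.

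Nfatc3 and Nfat5 had no FOS region inside their bodies. Nfatc3, a calcineurin-dependent NFAT factor of broad expression, lies on chromosome 8 from 106058818 to 106130537. Its window held 8 FOS-only regions with scores of 14.9 to 38.2, of which 0 were nearest to Nfatc3. They lay in or beside neighbours, 3 of them in or beside Pla2g15, 2 in or beside Dpep2, and 1 each inside Slc12a4, Ddx28 and Slc7a6os. The closest was 19632 bp away and had 1 call (score 25.1). Nfatc3 thus had regions only through the width of the window.

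Nfat5 encodes the tonicity-responsive NFAT protein, which lacks the calcineurin-binding part of the other family members. It lies on chromosome 8 from 107293435 to 107379517. A 2-call region of score 21.9 covered its start, with the centre 89 bp before it. A 4-call region of score 22.3 at 107291202 to 107291658 lay 2040 bp before the start, and a 1-call region of 6.4 lay 15834 bp before it. These 3 were nearest to Nfat5, and 3 further regions of 6.29, 19.0 and 14.1 lay inside Nqo1, Nob1 and Wwp2. Of the members, Nfat5 had the lowest highest score (22.3, rank 13737). The IL-33 list was 766.1 kb away from Nfat5 and 369.6 kb away from Nfatc3.

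**Figure D2:**
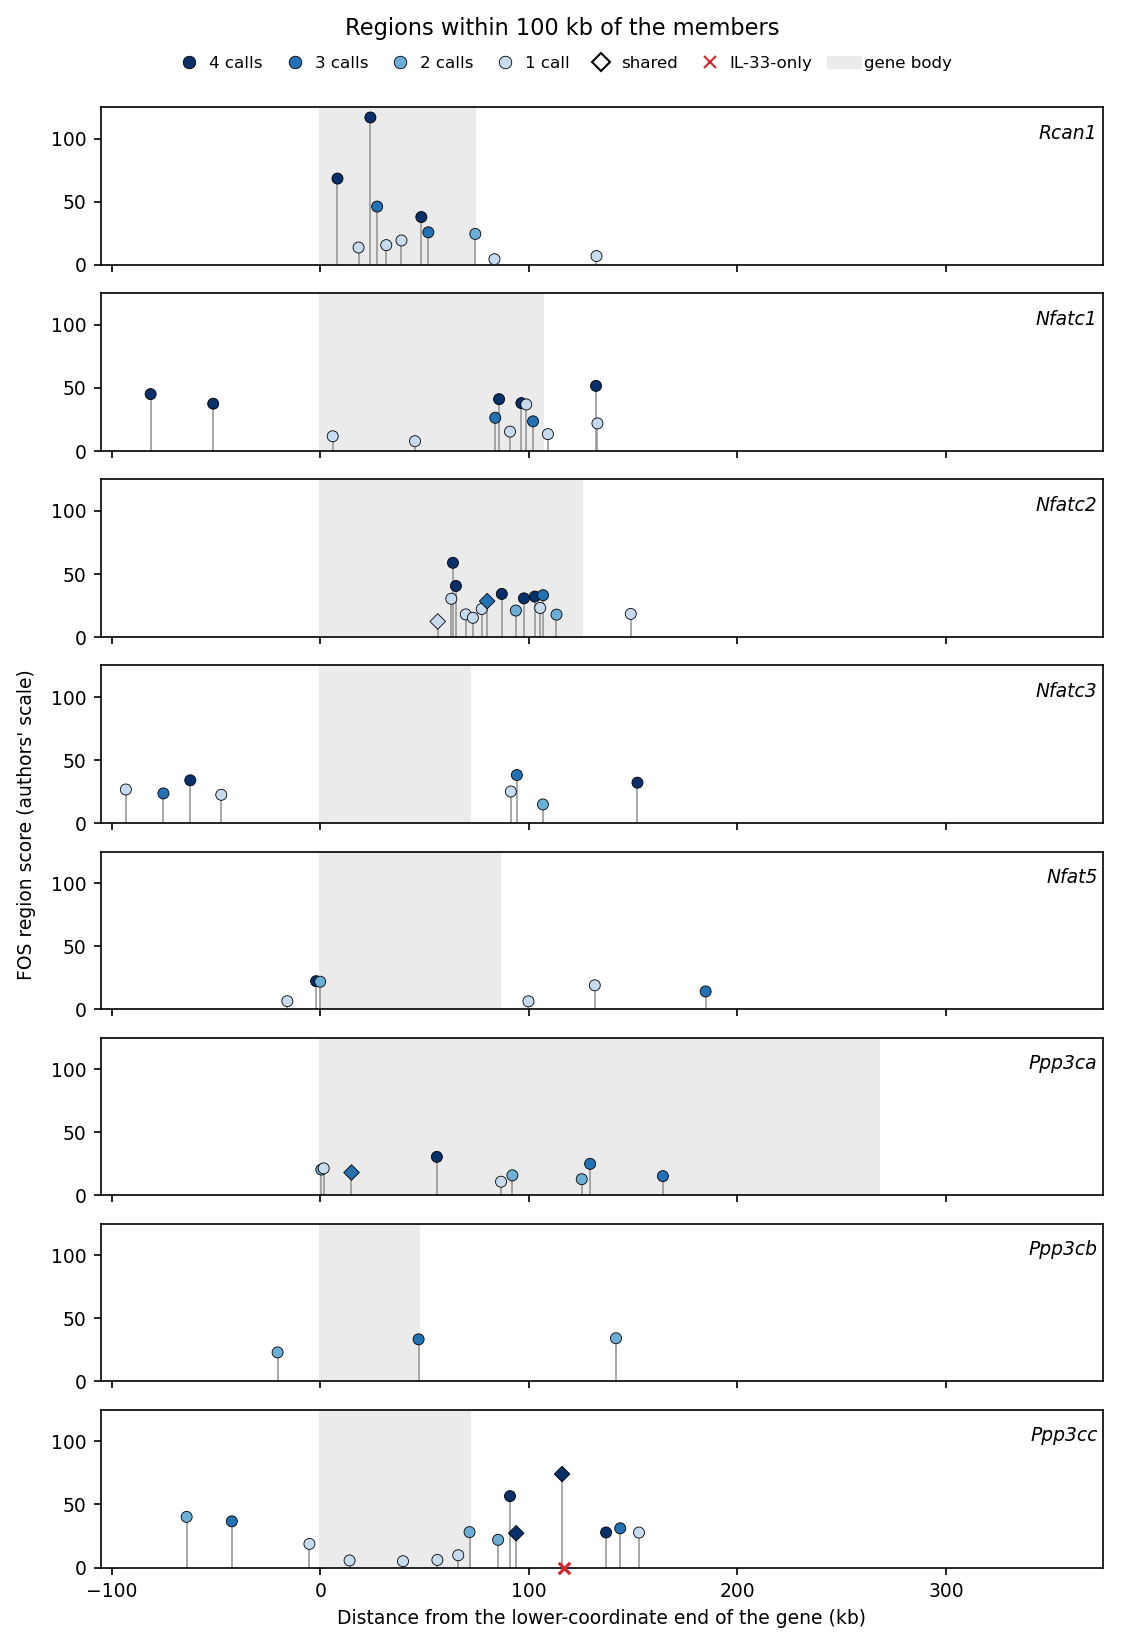
Regions within 100 kb of each of the 8 genes. The x axis is the distance from the lower-coordinate end of the gene in kb, the y axis the score on the authors' scale, circles are FOS-only and diamonds shared regions coloured by calls, the cross is the IL-33-only region and grey the gene body. Points crowd inside Rcan1 and Nfatc2, and the grey bodies of Nfatc3 and Nfat5 are empty.

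The genes of the 3 calcineurin catalytic subunits differed from one another as well. Ppp3ca encodes the alpha subunit, the main form in brain. It lies on chromosome 3 from 136669714 to 136937727, and at 268.0 kb it is the longest member. All 9 of its regions lay inside the gene and had scores of 10.8 to 30.5. The highest, at 136725353 to 136725875, was its single 4-call region. Regions of 20.5 (2 calls) and 21.4 (1 call) lay 505 and 1646 bp inside the lower end. A shared region 14893 bp inside it, at 136684324 to 136684890, had 3 FOS calls and 2 IL-33 list calls, with centres 111 bp apart and a restored score of 18.7 (9.35 as deposited). Of the 9 regions, 8 lay in the lower-coordinate part of the gene, and 4 reached the median of all FOS regions, 20.2.

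Ppp3cb encodes the beta subunit, which is widely expressed in immune cells. It lies on chromosome 14 from 20499364 to 20546573 and had 3 regions, the fewest of the members. One, at 20546338 to 20546681, overlapped its promoter window with a score of 33.4 and 3 calls, and its centre lay 64 bp after the start. The others lay inside Anxa7 (23.0) and Usp54 (34.2), with 2 calls each. Ppp3cb was the only one of the 8 genes without a 4-call region in its window, and the IL-33 list was 503.6 kb away.

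Ppp3cc encodes the gamma subunit and lies on chromosome 14 from 70217864 to 70289536. Its window held 15 FOS regions and 1 IL-33-only region, but most of them belonged to neighbours. Inside the gene, 4 single-call regions had scores of 4.98, 5.58, 5.99 and 9.7, among the lowest of all 81. A 2-call region of 28.1 at 70289263 to 70289583 lay 113 bp inside the higher-coordinate end. Below the lower end, regions of 40.1 and 36.6 were nearest to Ccar2 and Pdlim2. The highest score lay beyond the higher-coordinate end, inside Slc39a14, which encodes a zinc and iron transporter. There a 4-call shared region at 70333535 to 70334035 scored 74.1 restored and 37.0 as deposited, and its FOS and IL-33 list centres were 8 bp apart. A second 4-call shared region scored 27.2, a FOS-only region of 4 calls scored 56.6, and the IL-33-only region lay at 70334280 to 70334780. Each of these 4 regions was nearest to Slc39a14.

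Counted over the 8 genes, 8 had a FOS region within 100 kb, against 79.5% of all coding genes. A 4-call region was present for 7 of 8, against 49.1%. A shared region was present for 3 of 8 (Nfatc2, Ppp3ca and Ppp3cc), against 14.7%, and the same 3 had any region of the IL-33 list, against 19.1%. Inside the gene body, 6 of 8 had a FOS region, against 38.2% of all coding genes and 61.9% of the 5191 that were at least as long as Ppp3cb, the shortest member. Inside the body, 4 of 8 had a 4-call region (Rcan1, Nfatc1, Nfatc2 and Ppp3ca), against 11.4% of all genes and 23.2% of these longer ones. A shared region stood inside Nfatc2 and Ppp3ca, against 2.55% of all genes and 7.32% of the longer ones, and any IL-33 list region inside the same 2 genes, against 3.41%. Rcan1 and Nfatc2 had 3 or more 4-call regions inside the body, against 1.63%. Within 10 kb, 7 of 8 had a FOS region, against 57.0%, and 5 of 8 a 4-call region, against 19.8%. In that narrower window 2 of 8 had a shared region, against 3.93%, and 2 of 8 any IL-33 list region, against 5.43%. The shares for 3 or more 4-call regions, for any IL-33 list region inside the body and for both windows are over all coding genes. They were not counted for the longer genes. The shortest member is 47210 bp long and the median coding gene 17170 bp, so gene length adds to these contrasts. The count with any FOS region within 100 kb is close to the background. The genes were chosen with such results known, so none of these counts is evidence of a preference for the pathway.

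The mix of recurrent and single-call regions at the 8 genes was close to that of the table. Of their 81 FOS regions, 32 had 1 call, 13 had 2, 15 had 3 and 21 had 4. The 4-call share was 25.9%, against 22.9% of all FOS regions, and the 1-call share was 39.5%, against 39.8%. For the 53 regions nearest to a member the 4-call share was 24.5%. Shared regions made up 6.17% of the 81, against 4.92% of all FOS regions. The median score was 23.5 over the 81 and 22.3 over the 53, against 20.2 over all FOS regions, and 52 of the 81 reached that median. Of the 81, 3 ranked within the first 500, namely 2 of Rcan1 and the Slc39a14 region.

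**Figure D3:**
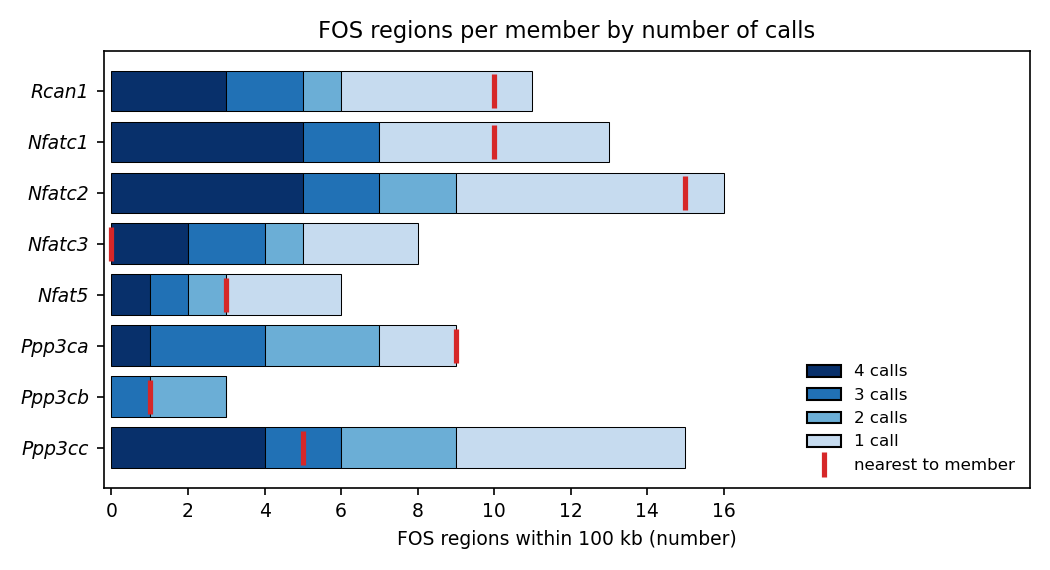
FOS regions within 100 kb of each gene. The x axis is the number of regions, stacked by number of calls from 4 at the left to 1 at the right, and the red mark is the number nearest to the gene. Nfatc3 has 8 regions and its mark is at 0, while the mark of Nfatc2 is at 15 of 16.

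The number of regions and the highest score did not give the same order of the genes. By number of FOS regions within 100 kb the order was Nfatc2 (16), Ppp3cc (15), Nfatc1 (13), Rcan1 (11), Ppp3ca (9), Nfatc3 (8), Nfat5 (6) and Ppp3cb (3). The median coding gene had 5, with quartiles of 1 and 9. By highest score it was Rcan1 (117), Ppp3cc (74.1), Nfatc2 (58.9), Nfatc1 (51.6), Nfatc3 (38.2), Ppp3cb (34.2), Ppp3ca (30.5) and Nfat5 (22.3), against a median of 33.9 in the 17398 coding genes with a FOS region. When only regions nearest to the gene counted, the highest scores were 28.1 at Ppp3cc, 41.1 at Nfatc1 and 33.4 at Ppp3cb, and Nfatc3 had none. Since no library has its own value, whether neighbours in these orders differ beyond the spread between mice cannot be told.

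**Figure D4:**
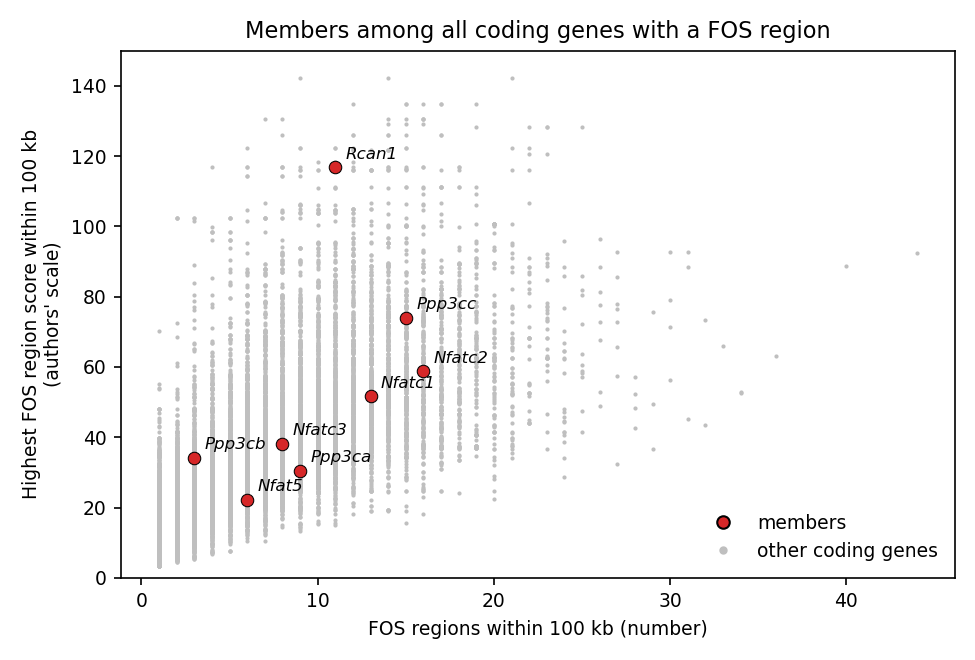
The 8 genes (red) among all coding genes with a FOS region (grey). The x axis is the number of FOS regions within 100 kb and the y axis the highest score among them on the authors' scale. Rcan1 has the highest score of the 8 (117, with 11 regions), and Nfatc2 the largest number of regions (16, with a score of 58.9).

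Other genes of the pathway were taken from a list of 27 and all 27 had a FOS region within 100 kb, against the 79.5% above. A 4-call region was present for 21 of 27, against 49.1% of all coding genes. A shared region was present for 8, against 14.7%, and any IL-33 list region for 11, against 19.1%. The list was chosen with earlier results of these data known, and shares for genes of like length were not counted. None of these counts is therefore evidence of a preference for the pathway. For 24 of 27 at least 1 FOS region was nearest to the gene itself, the exceptions being Nfatc4, Orai3 and Ppp3r2. The same share over all coding genes was not counted, so this number says nothing particular about the pathway. Itpr2, which encodes an IP3 receptor of the endoplasmic reticulum, had 16 FOS regions inside the gene, 5 of them of 4 calls, and a highest score of 69.9. The gene is 393960 bp long, against 17170 bp for the median coding gene. Orai1, the pore of the store-operated calcium channel, reached 56.1 and Orai2 51.0, in regions nearest to each. The related channel genes Itpr1 and Itpr3 reached 31.4 and 29.6 in regions nearest to them, and Orai3 had none. Stim1, the calcium sensor that opens the store-operated calcium channel, had 67.5 in its window, but that region was nearest to Rhog. The highest score in a region nearest to Stim1 was 23.4.

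Among activators, Plcg2, a phospholipase downstream of immune receptors in microglia, had 9 FOS regions inside its 136868 bp and a highest score of 39.7. The calmodulin genes Calm2 and Calm3 reached 34.6 and 42.7 in regions nearest to them. Among kinases that return phosphate to NFAT, Dyrk2 had 15 FOS regions nearest to it (53.8) and Gsk3b reached 23.0. Dyrk1a, also such a kinase, had 4 4-call regions inside its 125573 bp (39.1). Among genes of further calcineurin regulators, the highest scores in regions nearest to them were 34.8 at Cabin1, 36.5 at Rcan3 and 7.9 at Rcan2. Ppp3r1, the regulatory subunit of calcineurin, had 27.4 from a single call. Ppp3r2, the form of that subunit known from testis, had 1 region in its window, of score 4.34 and nearest to Grin3a. Nfatc4 had 0 FOS regions inside the gene.

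**Figure D5:**
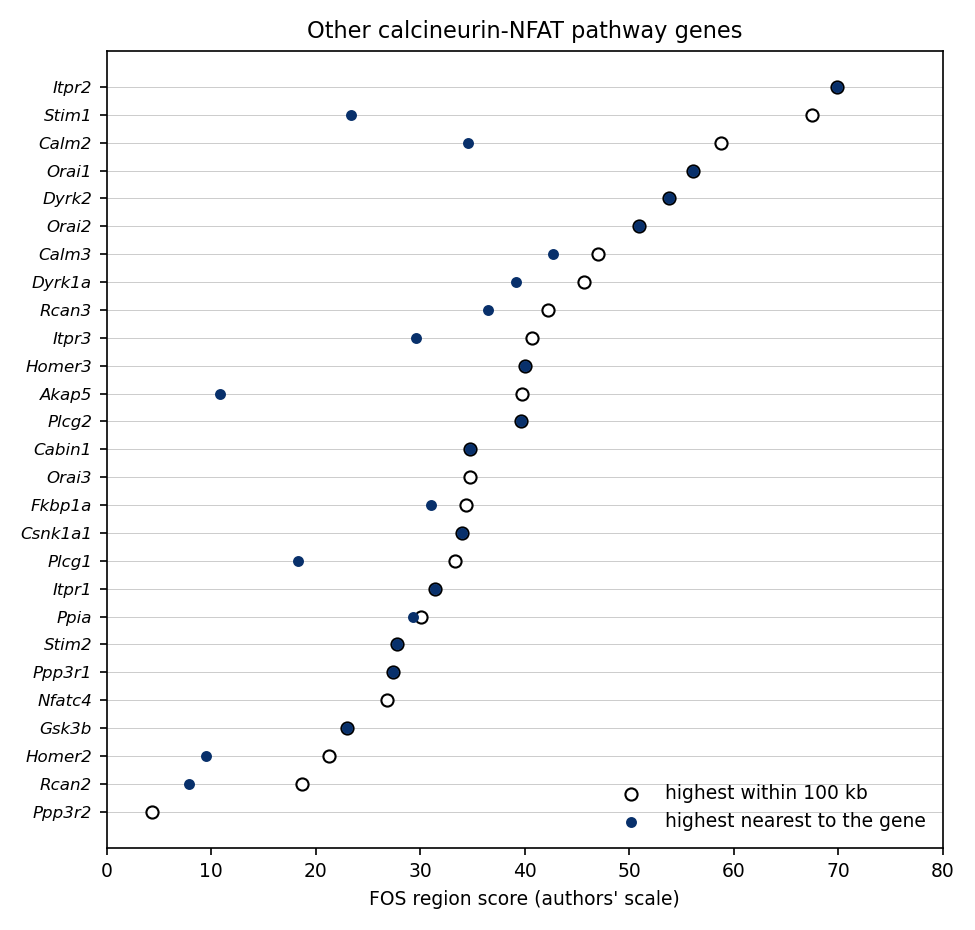
Highest FOS region score of 27 other pathway genes. The x axis is the score on the authors' scale, open circles are the highest score within 100 kb and filled circles the highest among regions nearest to the gene. The circles coincide at Itpr2 (69.9) and Orai1 (56.1) and lie apart at Stim1 (67.5 and 23.4).

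Markers of the labelled cell type and of others were looked up as a description. They were chosen with earlier results of these data known, so the counts are no check of the cell type. Any FOS region within 100 kb was present for 8 of 8 microglia, 6 of 7 neuron and 7 of 7 T cell markers. It was present for 3 of 4 astrocyte and 4 of 4 endothelial markers, against 79.5% of all coding genes. All 8 microglia markers had a 4-call FOS region within 100 kb, against 49.1% of all coding genes. The same held for 2 of 7 neuron, 3 of 7 T cell, 1 of 4 astrocyte and 3 of 4 endothelial markers. Inside the gene, 7 of 8 microglia markers had one, against 11.4% of all coding genes. The counts with a 4-call region inside the gene were 0 of 7 for neurons, 0 of 7 for T cells (7 of 8 listed markers matched), 1 of 4 for astrocytes and 2 of 4 for endothelial cells. The part of other cells in the regions of the 8 genes was not tested.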

How the data were processed

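The authors' table held 1 score per region, per the file headers a statistic averaged by the HOMER mergePeaks program over the peaks joined from their FOS list and the IL-33 list. The submitters' processing notes name Bowtie2, HOMER, mm10 and GRCm38. No label or header states versions, peak caller settings, how inputs were used or which assay gave the IL-33 list. The restored score is the deposited one times the number of merged peaks divided by the number of FOS peaks. A shared region took the largest number of calls among its peaks. Gene bodies came from RefSeq (GRCm38.p6), 21883 protein-coding genes on 21 main chromosomes, and 3 regions outside these were not assigned. Distances run from the region centre. Strand and starts came from RefSeq promoter windows. Counting was tested on simulated regions. Python 3.11.15, pandas 2.3.3, numpy 2.4.6 and matplotlib 3.10.9 were used.

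The members, the pathway list and the markers were chosen with earlier results of these data known. Named genes were the 8 members, the pathway list, the 5 genes most like Rcan1 and genes nearest to a member's region, and 1 listed gene is not reported here. Alternatives changed the window, the assignment, the calls, the score, the position used, the gene types and the overlap that counts as shared. Inputs have no values in the table and were not analysed here.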

Additional observations from a re-analysis of the deposited data

How the results depend on the processing

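The 81 FOS regions of the 8 genes numbered 46 inside gene bodies, 52 within 10 kb, 53 when nearest to the gene, 49 with 2 or more calls, 21 with 4 calls and 52 that reached the median score. With 4-call regions only, 1 gene in place of 3 had a shared region (Ppp3cc) and, with IL-33-only regions kept, 1 in place of 3 had any IL-33 list region. Inside gene bodies, 4 genes in place of 7 had a 4-call region. These differences follow from counting fewer regions. The other 34 comparisons of a summary value with an alternative stayed within 1.5 times, among them the genes with a shared region when FOS and IL-33 list centres had to lie within 100 bp (2) or 1 kb (3). For single genes, the number of FOS regions fell outside 1.5 times in 30 of 56 comparisons. The highest score did so in 2 of 21, both at Ppp3cc (28.1 inside the gene or nearest to it, in place of 74.1). A gene left with no FOS region had no highest score and was outside the 21 and the median of highest scores. This held for Nfatc3 inside the gene and nearest to it, and for Nfat5 inside the gene. No value for a single gene was higher under these alternatives. No paired analysis was possible because the table has no values per library, so no library could be left out either. Depth per library is unknown.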

Other observations

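The downstream Rcan1 window held both TGANTCA and TGACGTCA, as did 19 of all 32851 promoter windows. The pair was not counted among FOS-overlapped windows alone, and the shares that follow are for each motif by itself. Of the 5820 promoter windows of coding genes overlapped by a FOS region, 4.76% held TGANTCA, against 7.83% of the 15442 windows without one. Under a 4-call region the share was 7.29% of 1042 windows. TGACGTCA stood in 3.99% of windows overlapped by a FOS region, against 1.57% of the others, and in 2.69% of the 1042 windows under a 4-call region. Base composition and gene activity were not compared between the windows, so these shares are a description with no test.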
